A study of Mus musculus with 8 samples.

Results

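The genes described here encode the ligands, receptors, carriers, antagonists and intracellular messengers of TGF-beta and bone morphogenetic protein (BMP) signalling. They were taken as a fixed list of 42 gene symbols, out of 15994 rows in the MLL-AF9 count table and 55421 rows in the AE9a count table. All 42 were found in the AE9a table and 40 in the MLL-AF9 table, where Gdf10 and Nog have no row. RNA was counted per gene in cultured mouse BMSC, the adherent stromal cells grown from whole marrow and bone, 6 weeks after transplantation with acute myeloid leukaemia. The 4 groups were Id1-/- and Id1+/+ cells from mice with leukaemia driven by MLL-AF9, which joins KMT2A to MLLT3, and Id1-/- and Id1+/+ cells from mice with leukaemia driven by AE9a, a truncated form of the RUNX1-RUNX1T1 fusion. All groups thus shared exposure to leukaemia and no culture from healthy mice was analysed here. The series title places the question in how Id1 in the surrounding tissue bears on leukaemia. The sources used here give neither the age nor the sex of the mice, nor how the Id1 allele was made.

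TGF-beta, activin and BMP ligands are secreted dimers that bring type II and type I receptor kinases together. TGF-beta and activin receptors phosphorylate Smad2 and Smad3, BMP receptors phosphorylate Smad1, Smad5 and Smad9, and both sets join Smad4 in the nucleus. TGF-beta is secreted in a latent complex that latent TGF-beta binding proteins (LTBPs) tether to the matrix, and in marrow stroma the pathway is known for driving matrix production and for steering bone and fat cell fates. Id1 is itself a textbook BMP target gene.

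The MLL-AF9 libraries held 17864812 to 22510346 counts, with 2 libraries per genotype. In the AE9a table, one column of each genotype equals the other plus a constant in nearly every gene with 10 or more counts (134 in 13695 of 13696 genes for Id1+/+, 17 in all 14187 for Id1-/-). Only 1 column per AE9a genotype was therefore used, holding 18126803 counts in Id1-/- and 20967896 in Id1+/+ cells, and no test was made within AE9a. Id1 itself had 226 and 222 counts in MLL-AF9 Id1-/- cultures, against 706 and 632 in Id1+/+ cultures. In AE9a it had 83 counts in the Id1-/- library and 383 in the Id1+/+ library, so reads assigned to Id1 remained in Id1-/- cells of both models. Replicate numbers are not tied to animals in the labels, so p-values measure the spread between libraries, which may be technical.

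The labelled cell type was checked against marker genes. Of 17 mesenchymal markers outside the pathway, 1 was at 0 in a library (Lum, with 2 counts in the AE9a Id1-/- and 0 in the AE9a Id1+/+ library). Their summed level was 359 and 376 CPM (counts scaled to library size) in MLL-AF9 Id1-/- cultures, against 259 and 257 CPM in Id1+/+ cultures. The 14 macrophage markers summed to far more, 25374 and 24848 CPM in Id1-/- and 31101 and 28132 CPM in Id1+/+ cultures, with none at 0. In AE9a the mesenchymal sum was 325 CPM in the Id1-/- library and 144 CPM in the Id1+/+ library, and the macrophage sum was 28283 CPM in the Id1-/- and 36780 CPM in the Id1+/+ library. These cultures thus held macrophage RNA beside mesenchymal RNA, and both sums differed between genotypes in the same samples as the genes below. In such bulk libraries, fewer cells of a type and less RNA per cell cannot be told apart.

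Stretches of 250 bases before the annotated start are shown for 5 genes on which the results turn. They are Inhbb, Tgfb2 and Ltbp1, which were among the most changed in both models, and Grem1 and Ltbp3, whose difference between the models had the smallest adjusted p. Sequences are from RefSeq (GRCm38.p6), 5′ to 3′ on the strand of the gene, with capitals marking the SMAD box (CAGAC or its reverse complement GTCTG) and the GC-rich SMAD element GGCGCC. The windows lie at chr1:119422249-119422498 (minus strand) for Inhbb, chr1:186705990-186706239 (minus strand) for Tgfb2, chr17:75005279-75005528 (plus strand) for the upstream start of Ltbp1, chr2:113758649-113758898 (minus strand) for Grem1 and chr19:5740650-5740899 (plus strand) for Ltbp3. Each ends before the gene's first annotated exon.
Inhbb: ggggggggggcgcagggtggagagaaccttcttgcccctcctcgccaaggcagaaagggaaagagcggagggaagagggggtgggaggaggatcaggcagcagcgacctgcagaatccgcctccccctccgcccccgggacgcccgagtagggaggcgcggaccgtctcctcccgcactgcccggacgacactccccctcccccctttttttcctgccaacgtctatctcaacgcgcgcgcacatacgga
Tgfb2: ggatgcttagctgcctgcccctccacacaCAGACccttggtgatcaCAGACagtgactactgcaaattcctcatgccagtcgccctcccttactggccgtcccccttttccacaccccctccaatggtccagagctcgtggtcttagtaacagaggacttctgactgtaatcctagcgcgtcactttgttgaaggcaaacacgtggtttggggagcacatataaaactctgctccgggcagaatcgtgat
Ltbp1: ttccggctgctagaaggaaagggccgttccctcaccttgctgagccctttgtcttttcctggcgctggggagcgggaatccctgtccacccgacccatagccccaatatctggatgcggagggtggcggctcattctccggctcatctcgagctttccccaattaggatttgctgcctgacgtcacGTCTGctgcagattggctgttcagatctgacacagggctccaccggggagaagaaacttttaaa
Grem1: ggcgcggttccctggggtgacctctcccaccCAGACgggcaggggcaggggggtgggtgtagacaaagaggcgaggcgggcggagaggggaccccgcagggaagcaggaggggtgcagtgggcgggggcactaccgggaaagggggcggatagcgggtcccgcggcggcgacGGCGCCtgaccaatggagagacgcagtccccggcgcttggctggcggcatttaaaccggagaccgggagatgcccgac
Ltbp3: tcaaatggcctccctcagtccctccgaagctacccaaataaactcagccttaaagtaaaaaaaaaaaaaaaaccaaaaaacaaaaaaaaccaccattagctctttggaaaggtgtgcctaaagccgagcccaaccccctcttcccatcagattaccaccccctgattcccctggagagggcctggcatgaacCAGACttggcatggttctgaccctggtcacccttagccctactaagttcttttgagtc
Tgfb2 has 2 SMAD boxes, Ltbp1 and Ltbp3 have 1 each, Grem1 has 1 SMAD box and 1 GGCGCC, and Inhbb has neither. The window before the downstream start of Ltbp1, not shown, has 2 SMAD boxes. The first bases after the Inhbb and Tgfb2 windows were found in a GENCODE transcript of the gene. Those after the Ltbp1, Grem1 and Ltbp3 windows were not. RefSeq windows were used for 30 of the 42 genes, with 40 starts between them. A SMAD box was present before 45% of these 40 starts and before 42.2% of the 32851 starts of all genes used. GGCGCC, which reads the same on both strands and can share 1 base with a SMAD box, was present in 27.5% and 9.59%. The E-box CANNTG, bound by the basic helix-loop-helix factors that Id proteins restrain, was present in 45% and 66.2%. The AP-1 site (TGAGTCA or TGACTCA) was in 0 of the 40 windows and in 4.46% of all. These matches are descriptions of the windows; starts of 1 gene can overlap, and the marked motifs were picked after these counts were known.

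In MLL-AF9 cultures, ligands, latent TGF-beta carriers, selected receptors and Smad3 were higher in Id1-/- than in Id1+/+ cells, while Tgfb1, Tgfbr1, Smad2 and Smad4 were not called. Of the 42 genes, 38 passed the filter on low counts. By edgeR's quasi-likelihood test at an adjusted p under 0.05, 26 of these 38 were higher and 2 were lower, against 17.2% higher and 10.6% lower (27.8% called) over all 14137 genes tested. Their median log2 fold change was 0.46, against 0.00 over all genes. Bmp6 and Ltbp4 passed the filter only through the Id1-/- libraries, and without them 24 of 36 were higher and 2 lower. Bmp4 and Chrd, a BMP ligand and a BMP antagonist, fell under the filter with at most 11 counts in any MLL-AF9 library. All fold changes below are log2 of Id1-/- over Id1+/+ with the standard error (SE) of the fit, and levels are CPM scaled by TMM factors. Where genotypes are said not to overlap, 2 libraries are compared with 2, and the share of all genes without overlap is not given here. Lack of overlap was not particular to called genes. It also held for Bmp2, Acvrl1, Fst, Grem1, Smad2 and Skil, which were not called.

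**Figure D1:**
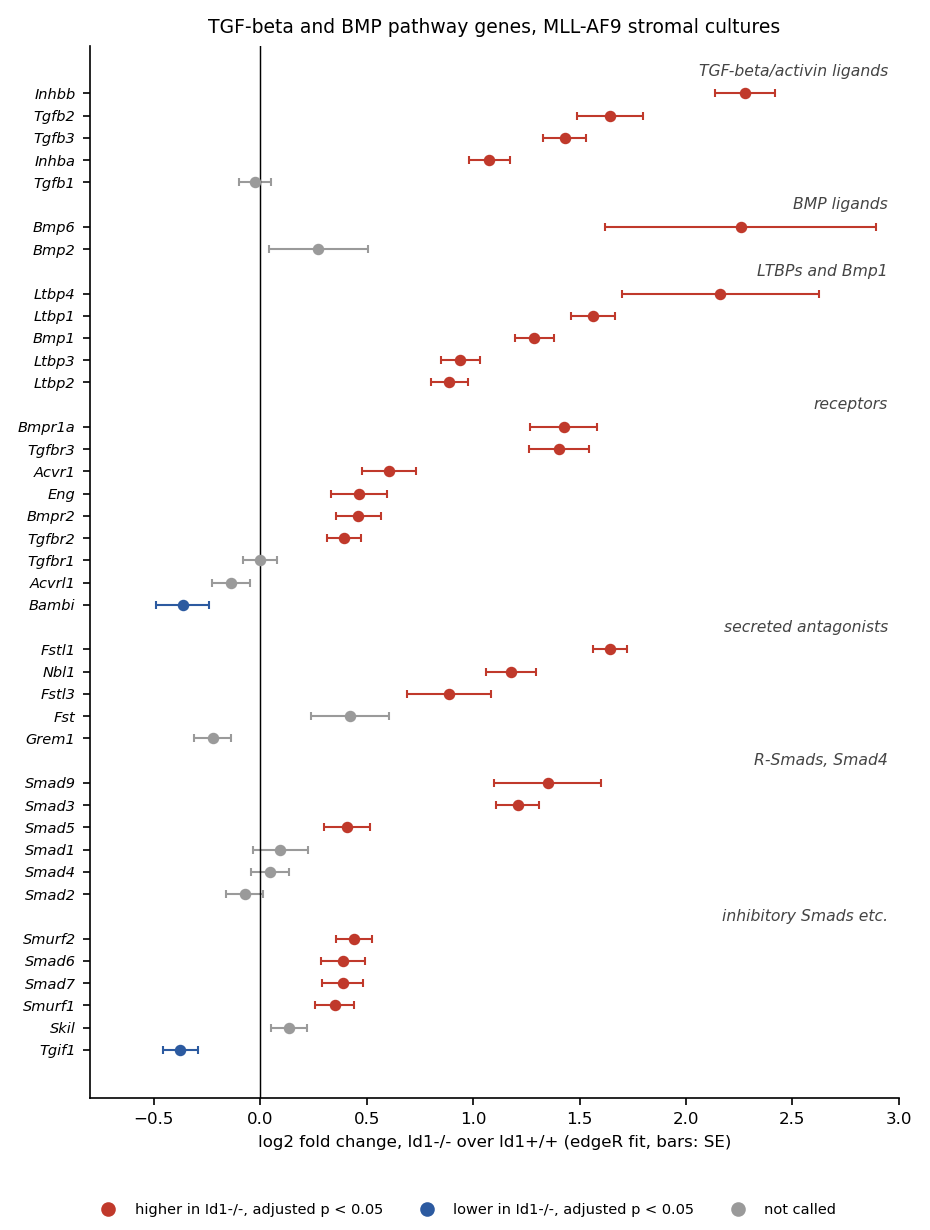
Log2 fold change (x axis, Id1-/- over Id1+/+, bars SE) of the 38 tested genes in MLL-AF9 cultures, grouped by role (y axis), from the edgeR fit of 2 libraries per genotype. Red marks the 26 genes higher in Id1-/- cells, blue Bambi and Tgif1, which were lower, and grey the 10 genes not called.

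Among the TGF-beta and activin ligands, 4 of 5 were higher. Inhbb, which encodes the activin beta B subunit, was at 22.8 and 22.4 CPM in Id1-/- cultures, against 4.41 and 4.88 CPM in Id1+/+ cultures. Its log2 fold change of 2.28 (SE 0.14, adjusted p = 9.25e-09) was the highest of the 38 genes. Inhba, which encodes the activin beta A subunit, was at 174 and 179.5 CPM in Id1-/- against 74.5 and 92.9 CPM in Id1+/+ cultures (log2 1.08, SE 0.10, adjusted p = 6.07e-07). Both activin subunits were thus higher in each Id1-/- library than in either Id1+/+ library.

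Of the 3 TGF-beta isoforms, which share receptors, Tgfb2 and Tgfb3 were called and Tgfb1 was not. Tgfb2 was at 16.3 and 18.8 CPM in Id1-/- cultures, against 5.10 and 6.12 CPM in Id1+/+ cultures (log2 1.64, SE 0.15, adjusted p = 9.92e-07). Tgfb3 was at 50.6 and 55.5 CPM in Id1-/- against 18.9 and 20.4 CPM in Id1+/+ cultures (log2 1.43, SE 0.10, adjusted p = 4.32e-08). For both of these isoforms the genotypes did not overlap. Tgfb1 was at 306 and 305 CPM in Id1-/- cultures, against 318 and 303 CPM in Id1+/+ cultures, with overlapping groups (log2 -0.02, SE 0.08, adjusted p = 0.85).

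Per kilobase of exon, Tgfb1 was the most abundant isoform in both genotypes. Its mean level was 60.6 CPM per kb in Id1-/- and 61.6 CPM per kb in Id1+/+ cultures. Tgfb3 averaged 15.7 CPM per kb in Id1-/- and 5.82 CPM per kb in Id1+/+ cultures, and Tgfb2 averaged 3.03 and 0.968 CPM per kb in those genotypes. The isoforms kept the same order in every MLL-AF9 library, with no overlap between neighbours. The exons of Tgfb3 share 12.4% of their bases with genes on the opposite strand, and the strand setting of the counting is not given in the sources used here.

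Of the BMP ligands, Bmp4 and Bmp6 had at most 16 counts in any MLL-AF9 library. Bmp2, the most abundant of them per kilobase, was at 4.25 and 4.11 CPM in Id1-/- against 4.02 and 2.92 CPM in Id1+/+ cultures, and was not called (log2 0.27, SE 0.23, adjusted p = 0.423). Bmp6 had 15 and 16 counts in Id1-/- libraries and 5 and 2 counts in Id1+/+ libraries (log2 2.26, SE 0.64, adjusted p = 0.0149). That call was lost whenever any 1 of the 4 libraries was left out, with adjusted p up to 0.171. Bmp4 had 11 and 8 counts in Id1-/- and 8 and 4 counts in Id1+/+ libraries. Gdf10, a ligand of the BMP3 subgroup, had 0 counts in both AE9a libraries, so the floor of 3 counts is the most that either allows.

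All 5 genes of the carrier and processing group were called higher, Ltbp4 through the Id1-/- libraries alone. Ltbp1, which tethers latent TGF-beta to fibronectin and fibrillin matrix, was at 57.8 and 58.5 CPM in Id1-/- cultures, against 18 and 21.3 CPM in Id1+/+ cultures (log2 1.56, SE 0.10, adjusted p = 1.99e-08). Ltbp3, another carrier of latent TGF-beta, was at 68.2 and 76.8 CPM in Id1-/- against 37.4 and 38.2 CPM in Id1+/+ cultures (log2 0.94, SE 0.09, adjusted p = 1.58e-06). Ltbp2, a family member that does not bind latent TGF-beta, was at 110.0 and 119.5 CPM in Id1-/- against 58.7 and 65.2 CPM in Id1+/+ cultures (log2 0.89, SE 0.09, adjusted p = 1.72e-06). The lowest Id1-/- library lay above the highest Id1+/+ library for each of these LTBPs. Ltbp4 had 27 and 30 counts in Id1-/- libraries and 6 and 8 in Id1+/+ libraries (log2 2.16, SE 0.46, adjusted p = 0.00264). Bmp1, which is not a BMP but the metalloproteinase that trims procollagen and cleaves chordin, was at 116 and 135 CPM in Id1-/- against 51.4 and 51.4 CPM in Id1+/+ cultures (log2 1.29, SE 0.09, adjusted p = 4.59e-08). Ltbp2 was the most abundant LTBP per kilobase, at 14.0 CPM per kb in Id1-/- and 7.57 CPM per kb in Id1+/+ cultures.

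**Figure D2:**
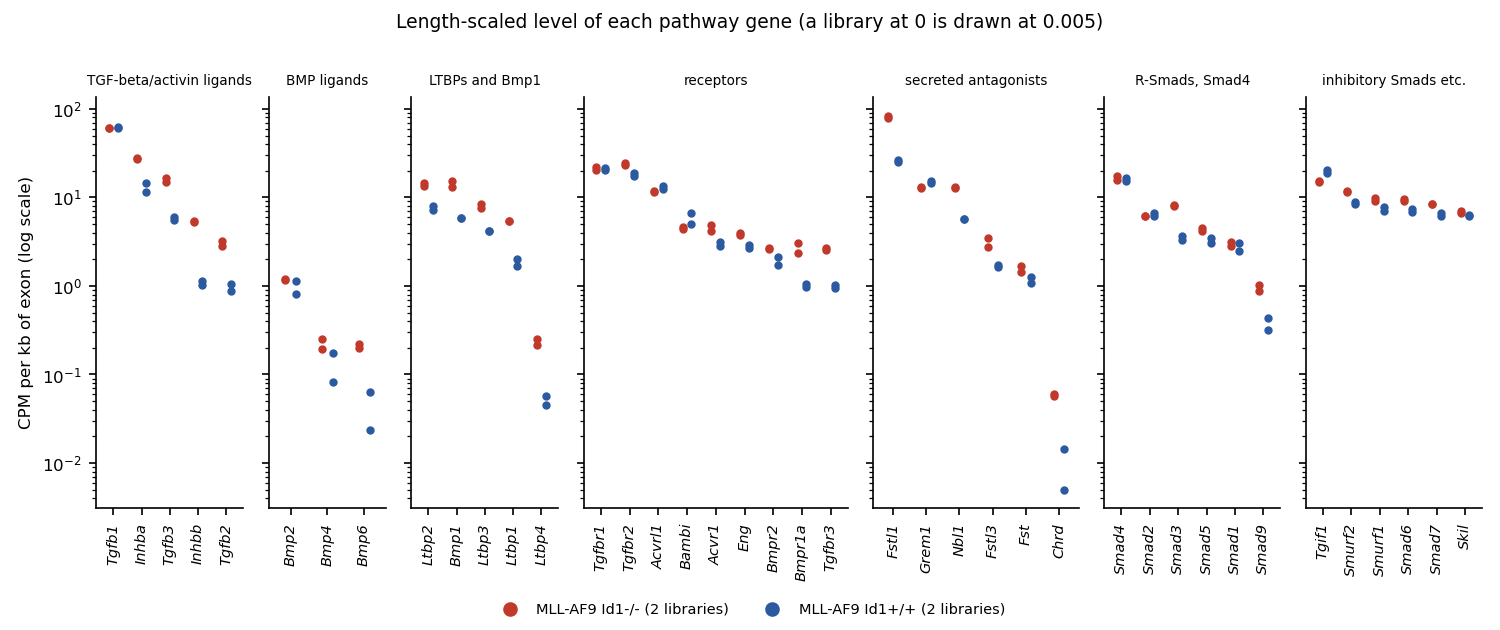
Level of each of the 40 pathway genes in the MLL-AF9 table, in CPM per kb of union exon length (y axis, log scale), by role and gene (x axis), with Id1-/- libraries in red left of Id1+/+ libraries in blue. Tgfb1 and Fstl1 stand highest, Bmp4, Bmp6, Ltbp4 and Chrd lowest, and the genotypes lie apart for Tgfb2, Tgfb3 and Inhbb but not for Tgfb1.

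Among receptors and coreceptors, 6 of 9 were higher and 1 was lower. The largest differences were in Bmpr1a, a BMP type I receptor, and Tgfbr3, the coreceptor betaglycan that presents TGF-beta2 and inhibin. Bmpr1a was at 19.4 and 15.2 CPM in Id1-/- against 6.62 and 6.25 CPM in Id1+/+ cultures (log2 1.43, SE 0.16, adjusted p = 4.90e-06). Tgfbr3 was at 17.8 and 16.6 CPM in Id1-/- against 6.71 and 6.25 CPM in Id1+/+ cultures (log2 1.40, SE 0.14, adjusted p = 2.18e-06). Neither gene showed overlap between the genotypes.

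The signalling receptors of TGF-beta itself differed little. Tgfbr2, the type II receptor, was at 199 and 190 CPM in Id1-/- against 142 and 154 CPM in Id1+/+ cultures (log2 0.39, SE 0.08, adjusted p = 0.00171). Tgfbr1, the type I receptor, was at 143 and 134 CPM in Id1-/- against 135 and 142 CPM in Id1+/+ cultures, with overlapping groups (log2 -0.00, SE 0.08, adjusted p = 0.999). Per kilobase these were the most abundant receptors of the list, with Tgfbr2 at 23.8 and Tgfbr1 at 21.2 CPM per kb in Id1-/- cultures, against 18.1 and 21.2 CPM per kb in Id1+/+ cultures. Tgfbr2 stood above Tgfbr1 in both Id1-/- libraries and below it in both Id1+/+ libraries.

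Smaller differences were called in 4 other receptors. Acvr1, a BMP and activin type I receptor, was at 23.5 and 20.2 CPM in Id1-/- against 13.5 and 15.3 CPM in Id1+/+ cultures (log2 0.60, adjusted p = 0.00225). Bmpr2, the BMP type II receptor, was at 48.3 and 47.0 CPM in Id1-/- against 31.1 and 38.2 CPM in Id1+/+ cultures (log2 0.46, adjusted p = 0.004). Eng, the coreceptor endoglin and also a mesenchymal and endothelial surface marker, was at 16.1 and 15.2 CPM in Id1-/- against 11.7 and 11 CPM in Id1+/+ cultures (log2 0.46, adjusted p = 0.015). None of these 3 overlapped between genotypes. Bambi, a pseudoreceptor without a kinase domain that blocks type I receptors, was lower, at 23.4 and 22.5 CPM in Id1-/- against 33.7 and 25.6 CPM in Id1+/+ cultures (log2 -0.37, SE 0.13, adjusted p = 0.0403). Its call was lost under 6 of 10 alternatives, with adjusted p up to 0.434 when Id1+/+ replicate 1, its highest library, was left out. Acvrl1, the type I receptor best known from endothelium, was not called (log2 -0.14, SE 0.09, adjusted p = 0.281).

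Secreted antagonists were divided. Fstl1, a follistatin-like matrix glycoprotein, was at 385 and 408 CPM in Id1-/- cultures, against 124 and 130 CPM in Id1+/+ cultures (log2 1.64, SE 0.08, adjusted p = 9.55e-10). It had the smallest adjusted p of the 38 genes and, at 80.6 CPM per kb in Id1-/- and 25.8 CPM per kb in Id1+/+ cultures, the highest level of the antagonists. Nbl1, a BMP antagonist of the DAN family, was at 26.7 and 26.0 CPM in Id1-/- against 11.7 and 11.6 CPM in Id1+/+ cultures (log2 1.18, SE 0.12, adjusted p = 1.68e-06). The genotypes lay apart for both genes.

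Fstl3, which binds activins, was at 6.70 and 8.61 CPM in Id1-/- against 4.02 and 4.24 CPM in Id1+/+ cultures (log2 0.89, SE 0.20, adjusted p = 0.00348). Its exons share 47.3% of their bases with Prss57 on the opposite strand, which was lower in Id1-/- cells (log2 -1.56, adjusted p = 0.0461). Without Id1-/- replicate 2 the Fstl3 call was lost (adjusted p = 0.0534). Fst, the activin antagonist follistatin (log2 0.42, SE 0.19, adjusted p = 0.104), and Grem1, a DAN-family antagonist of BMP2 and BMP4 (log2 -0.22, SE 0.09, adjusted p = 0.0646), were not called. Chrd, the BMP antagonist chordin, had 7 and 7 counts in Id1-/- and 0 and 2 counts in Id1+/+ libraries.

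Of the receptor-activated Smads and Smad4, 3 of 6 were higher. Smad3, which carries TGF-beta and activin signals, was at 45.0 and 43.9 CPM in Id1-/- against 18.3 and 20.1 CPM in Id1+/+ cultures (log2 1.21, SE 0.10, adjusted p = 2.68e-07). Its partner Smad2 was at 53.6 and 54.0 CPM in Id1-/- against 59.0 and 54.3 CPM in Id1+/+ cultures, and was not called (log2 -0.07, SE 0.09, adjusted p = 0.581). The groups did not overlap for either gene, and the unequal change of the pair was not tested. Per kilobase, Smad3 averaged 8.02 CPM per kb and Smad2 6.12 CPM per kb in Id1-/- cultures, against 3.47 and 6.45 CPM per kb in Id1+/+ cultures.

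Among the BMP Smads, Smad9 was at 4.66 and 5.52 CPM in Id1-/- against 2.30 and 1.69 CPM in Id1+/+ cultures (log2 1.35, SE 0.25, adjusted p = 0.000871). Smad5 was at 33.7 and 30.8 CPM in Id1-/- against 22.7 and 25.8 CPM in Id1+/+ cultures (log2 0.41, SE 0.11, adjusted p = 0.0101). Neither overlapped between genotypes. Smad1 was not called (log2 0.09, SE 0.13, adjusted p = 0.64). Smad4, the common partner and per kilobase the most abundant Smad, was at 64.5 and 58.7 CPM in Id1-/- against 57.3 and 62.2 CPM in Id1+/+ cultures, with overlapping groups (log2 0.05, SE 0.09, adjusted p = 0.753).

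The intracellular inhibitors moved by less than 1.4-fold. Smad6 was at 29.2 and 30.6 CPM in Id1-/- against 23.6 and 22.0 CPM in Id1+/+ cultures (log2 0.39, adjusted p = 0.0114), and Smad7 at 38.0 and 38.5 CPM in Id1-/- and 27.9 and 30.5 CPM in Id1+/+ cultures (log2 0.39, adjusted p = 0.00797). Both are inhibitory Smads that the pathway itself induces. The ubiquitin ligase genes Smurf1 and Smurf2, whose products target receptors and Smads, were higher too. Smurf1 was at 57.4 and 62.4 CPM in Id1-/- against 44.6 and 49.4 CPM in Id1+/+ cultures (log2 0.35, adjusted p = 0.0106). Smurf2 was at 73.1 and 71.7 CPM in Id1-/- against 51.9 and 54.8 CPM in Id1+/+ cultures (log2 0.44, adjusted p = 0.00123). None of these 4 overlapped between genotypes. Tgif1, a corepressor of Smad2 and Smad3 and the most abundant gene of this group per kilobase, was lower, at 83.3 and 86.6 CPM in Id1-/- against 113 and 107 CPM in Id1+/+ cultures (log2 -0.38, SE 0.08, adjusted p = 0.00291). Skil, the corepressor SnoN, was not called (log2 0.13, SE 0.09, adjusted p = 0.264). Besides Bambi, calls under 1.4-fold rested on single libraries in 6 genes. Without Id1+/+ replicate 1 those of Bmpr2, Smad5, Smad7 and Smurf1 were lost, and without Id1+/+ replicate 2 those of Eng and Smad6. Without Id1-/- replicate 1 those of Eng and Smad5 were lost, and without Id1-/- replicate 2 those of Smad6, Smad7 and Smurf1, with adjusted p of at most 0.116 in all these cases.

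**Figure D3:**
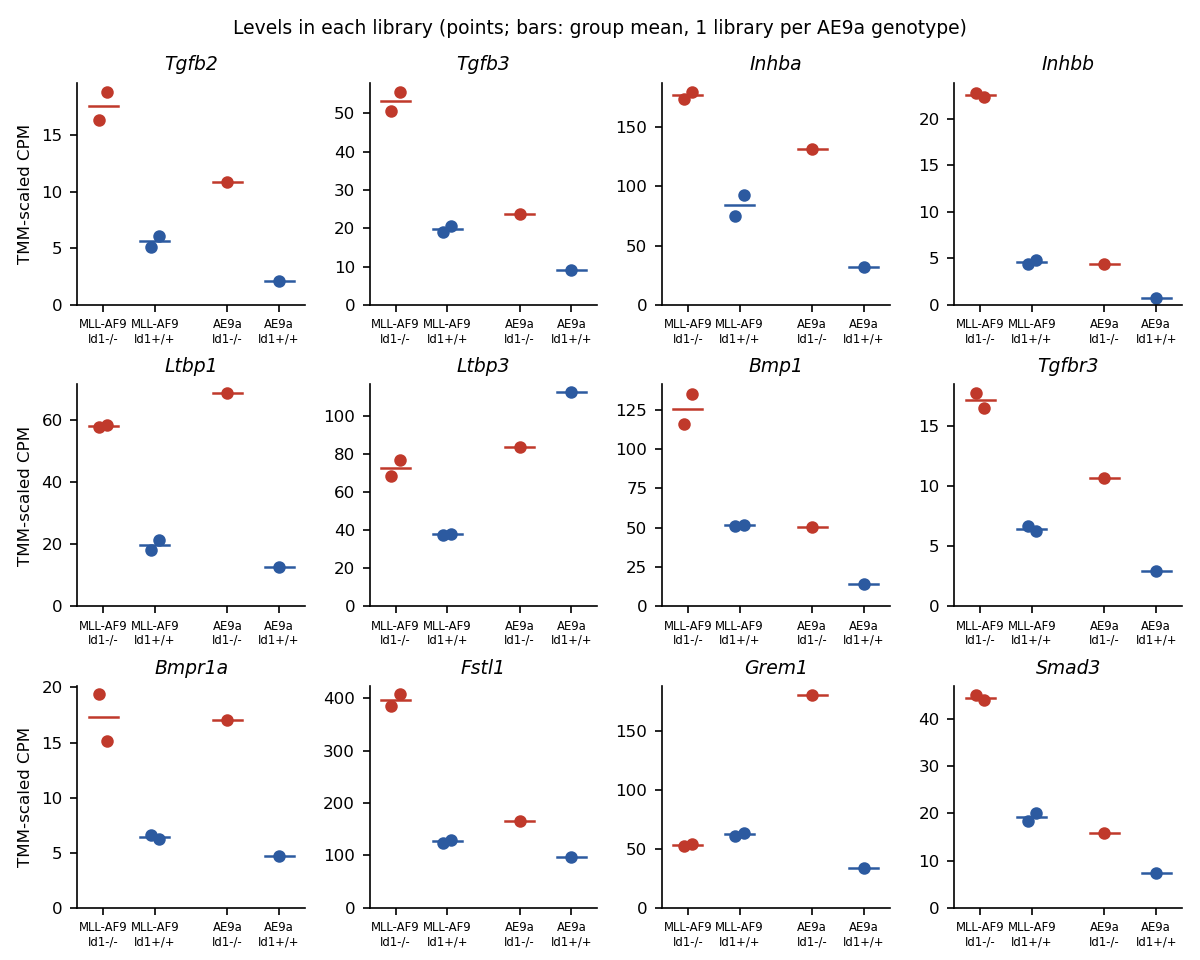
TMM-scaled CPM (y axis, from 0) of 12 pathway genes in each library, with Id1-/- in red left of Id1+/+ in blue within each leukaemia model; points are libraries and bars are group means, with 1 library per AE9a genotype and scaling done separately in each model. Red points lie above blue ones in both models for 10 of the 12 genes, while Ltbp3 does so in MLL-AF9 only and Grem1 in AE9a only.

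In AE9a, Inhbb, Inhba, Tgfb2, Tgfb3, Ltbp1, Ltbp2, Bmp1, Bmpr1a, Tgfbr3 and Smad3 again had higher values in the Id1-/- library, while Ltbp3 did not. With 1 library per genotype, ratios carry exact binomial 95% intervals for counting error only, and no test was made. Of 37 genes with at least 10 counts and a mean of at least 1 CPM, 18 were at least 2-fold higher and 0 at least 2-fold lower in the Id1-/- library, against 11.6% and 1.52% of all 12730 genes measured. Nog, Inhbb and Bmp2 reached that mean through the Id1-/- library alone. Of the 34 genes at 1 CPM or more in both libraries, 15 were at least 2-fold higher, against 8.98% of the 12072 genes with such levels. The median log2 ratio was 0.70 over these 34 genes, against -0.02 over those 12072. Over the 37 genes it was 0.98, against -0.01 over all 12730 genes measured.

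Among ligands, Inhbb had 86 counts in the Id1-/- library and 14 in the Id1+/+ library (6.2-fold, 95% interval 3.5 to 11.8). Tgfb2 had 210 counts in Id1-/- and 42 in Id1+/+ (5.04-fold, 3.61 to 7.20), and Inhba had 2549 counts in Id1-/- and 633 in Id1+/+ (4.06-fold, 3.72 to 4.44). Tgfb3 had 459 counts in Id1-/- and 180 in Id1+/+ (2.57-fold, 2.16 to 3.07). These were the 4 TGF-beta and activin ligand genes called in MLL-AF9, although Inhbb reached the level bar through the Id1-/- library alone. Tgfb1 again was not among the 2-fold differences, with 5434 counts in Id1-/- and 7157 in Id1+/+ (0.766-fold, 0.739 to 0.793). Bmp2 had 35 counts in Id1-/- and 12 in Id1+/+ (2.94-fold, 1.49 to 6.22).

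Among carriers, Ltbp1 was 5.39-fold (4.71 to 6.2) and Ltbp2 4.85-fold (4.5 to 5.24) higher in Id1-/-. Bmp1 was 3.52-fold higher (3.08 to 4.04). Ltbp3 went the other way, with 1620 counts in Id1-/- and 2203 in Id1+/+ (0.742-fold, 0.695 to 0.791). The transcript on the strand opposite Ltbp2, D030025P21Rik, shares 9.34% of the exon bases of Ltbp2 and had 53 counts in Id1-/- and 9 in Id1+/+.

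Of the receptors, Bmpr1a (3.63-fold, 2.87 to 4.62) and Tgfbr3 (3.62-fold, 2.69 to 4.93) were the 2 past 2-fold. These were also the receptors with the highest fold changes in MLL-AF9. Tgfbr2 (1.05-fold, 1.0 to 1.1) and Bmpr2 (1.05-fold, 0.975 to 1.12) had nearly equal levels in both AE9a libraries. Smad9 was 3.59-fold (2.64 to 4.94), Smad3 2.18-fold (1.78 to 2.68) and Smad6 2.07-fold (1.68 to 2.55) higher in Id1-/-, while the other Smad ratios lay between 0.878 and 1.56.

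Of the 6 antagonists measured, 5 were at least 2-fold higher, against 11.6% of all genes measured. Nog, 1 of the 5, reached a mean of 1 CPM through the Id1-/- library alone. Grem1 had 3501 counts in Id1-/- and 662 in Id1+/+ (5.33-fold, 4.91 to 5.80). Fstl3 had 123 and 20 counts in those libraries (6.2-fold, 3.85 to 10.5), and Fst had 131 and 40 (3.30-fold, 2.30 to 4.83). Nog, the BMP antagonist noggin, had 38 counts in Id1-/- and 3 in Id1+/+ (12.8-fold, 4.05 to 64.7), and Nbl1 was 3.92-fold higher (3.09 to 5.02). Fstl1 was higher by 1.70-fold (1.61 to 1.80), with 3234 counts in Id1-/- and 1915 in Id1+/+.

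Whether the genotype difference itself differed between the models was tested in an edgeR fit of all 6 libraries, on the assumption that the single AE9a libraries spread as the MLL-AF9 ones do. The interaction was called in 9 of 39 pathway genes, against 10.3% of all 15110 genes tested. In 6 of the 9 the log2 difference was higher in AE9a, against 3.73% of all genes, and in 3 it was lower in AE9a, against 6.57% of all genes. Antagonists made up 4 of the 9 and carriers 3.

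Grem1 differed most, with a log2 difference between genotypes that was 2.55 higher in AE9a than in MLL-AF9 (SE 0.15, adjusted p = 9.10e-08). Its levels were 180.5 CPM in the AE9a Id1-/- library and 33.8 CPM in the AE9a Id1+/+ library, but 52.8 and 53.8 CPM in MLL-AF9 Id1-/- and 60.7 and 63.7 CPM in MLL-AF9 Id1+/+ cultures. Ltbp3 differed in the other direction, by -1.46 (SE 0.15, adjusted p = 4.42e-05). It was higher in Id1-/- cells in MLL-AF9 and had 83.5 CPM in the Id1-/- library and 113 CPM in the Id1+/+ library of AE9a. Ltbp2 (1.30, adjusted p = 0.000121), Inhba (0.86, adjusted p = 0.00669) and Ltbp1 (0.78, adjusted p = 0.0149) were higher in Id1-/- in both models and more so in AE9a, and Fstl1 (-0.97, adjusted p = 0.000653) less so. Fstl3 (1.65, adjusted p = 0.0185), Fst (1.21, adjusted p = 0.0395) and Tgfb1 (-0.45, adjusted p = 0.0444) complete the 9. Tgfb1 lost its call under 6 of 7 alternatives (adjusted p up to 0.246), and Fst without MLL-AF9 Id1+/+ replicate 1 or without Id1-/- replicate 2 (adjusted p up to 0.103).

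**Figure D4:**
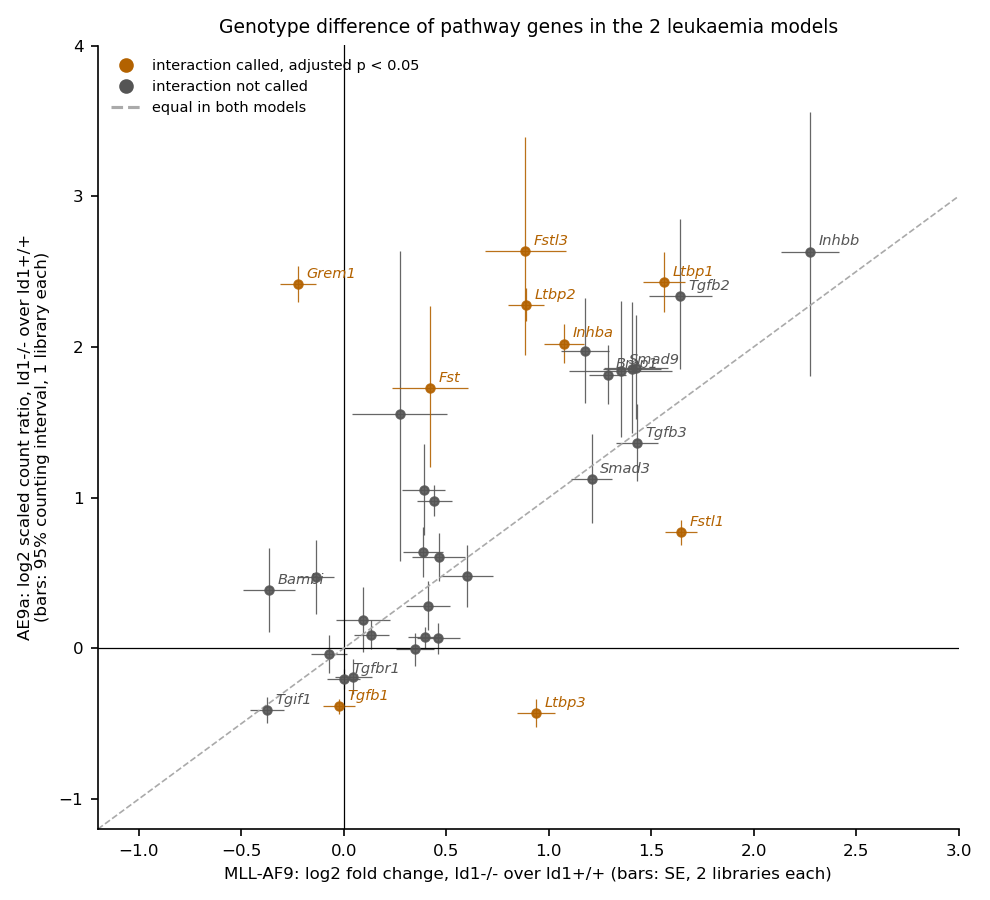
Genotype difference of pathway genes in AE9a (y axis, log2 scaled count ratio of Id1-/- over Id1+/+, bars 95% counting interval) against MLL-AF9 (x axis, log2 fold change, bars SE), for genes measured in both; orange marks called interactions and the dashed line equality. Grem1, Ltbp2, Fstl3 and Fst lie above the line, and Ltbp3 and Fstl1 below it.

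Mesenchymal markers moved with these differences. In MLL-AF9, 9 of 17 mesenchymal markers outside the pathway were higher in Id1-/- cells and 1, Cxcl12, was lower, with a median log2 fold change of 0.95. In AE9a 11 of the 13 measured were at least 2-fold higher and 1 was at least 2-fold lower, with a median log2 ratio of 1.81. The shares over all genes measured there were 11.6% and 1.52%. The median interaction of the 17 was 1.25. Of smooth muscle and pericyte markers 4 of 5 were higher in MLL-AF9 (median log2 1.13), and of osteoblast markers 4 of 5 (median log2 1.47). Macrophage markers were lower in 7 and higher in 3 of 14 (median log2 -0.22), and neutrophil markers lower in 6 of 7. The share of macrophage markers that were higher was near that over all genes. Of 8 leukaemic blast and myeloid progenitor markers, 6 were lower in MLL-AF9 (median log2 -0.72), while all 8 ratios lay above 0 in AE9a (median log2 0.78). The interaction was called in 6 of those 8, with a median of 1.79, and in 8 of the 17 mesenchymal markers. Over all genes tested it was called in 10.3%. Neutrophil markers had a median interaction of 2.47, with 3 of 8 called, and megakaryocyte markers one of 1.88, with 2 of 4 called. Their summed levels were nevertheless lower in Id1-/- cells in both models. Neutrophil sums were 342 and 340 CPM in MLL-AF9 Id1-/- against 600 and 523 CPM in Id1+/+ cultures, and 3121 against 6043 CPM in AE9a. Megakaryocyte sums, in the same order, were 150 and 149 against 420 and 354 CPM in MLL-AF9, and 413 against 558 CPM in AE9a. The median AE9a log2 ratio of the 5 neutrophil markers measured was -0.21. The part of these cell types in the pathway differences, and in their interaction, was not tested.

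**Figure D5:**
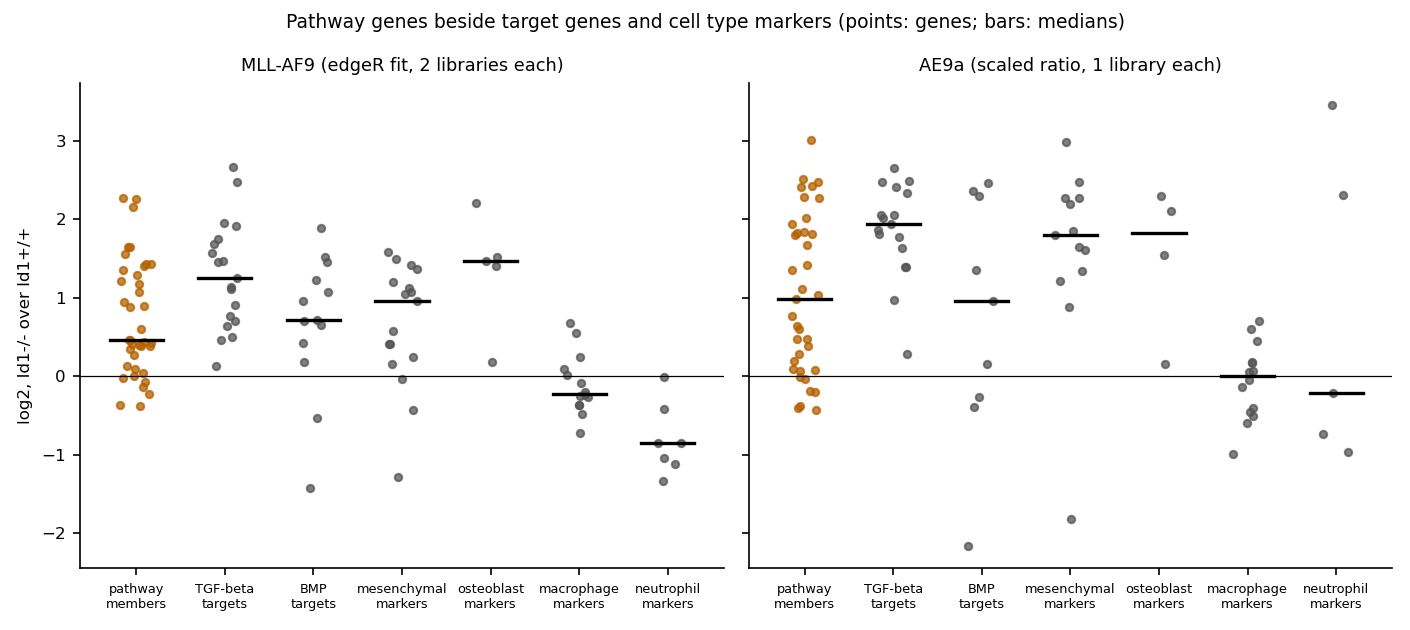
Log2 of Id1-/- over Id1+/+ (y axis) for each gene (points) of the pathway list, the TGF-beta and BMP target lists and 4 marker lists (x axis), with medians as bars, in MLL-AF9 (left, edgeR fit) and AE9a (right, scaled ratio). Pathway, target, mesenchymal and osteoblast medians lie above 0 in both models, and the macrophage median lies at -0.22 in MLL-AF9 and near 0 in AE9a.

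Further genes of the pathway were counted from 112 listed symbols outside the 42, of which 78 were tested in MLL-AF9. In Id1-/- cells 40 were higher and 4 lower, against 17.2% and 10.6% of all genes tested. The 4 lower included Id1, which differs between the genotypes by design. Amhr2, Dlx6, Inha, Lefty1, Msx2 and Nox4 passed the filter only through the Id1-/- libraries, and without them 37 of 72 were higher and 4 lower. Genes that TGF-beta is known to induce were mostly higher, 17 of 19 (17 of 18 without Nox4), and all 19 fold changes lay above 0, with a median log2 of 1.25. The 3 with the smallest adjusted p were Col1a2 (log2 2.47), Col1a1 (2.67), which encode the chains of type I collagen, and Timp3 (1.95), a metalloproteinase inhibitor of the matrix. In AE9a 15 of the 17 measured were at least 2-fold higher in the Id1-/- library, against 11.6% of all genes measured. Acta2, Tagln and Cnn1 of this list are also smooth muscle markers. Ltbp2, Smad7, Tgif1 and Skil were on the list too, but belong to the 42 genes and are not among the 19. Of these in MLL-AF9, Ltbp2 and Smad7 were higher, Tgif1 was lower and Skil was not called.

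Of genes known as BMP targets, 7 of 13 were higher and 2 lower (6 of 11 and 2 without Dlx6 and Msx2). The shares over all genes tested were 17.2% and 10.6%. Sp7, the osteoblast factor osterix, was higher (log2 1.52), as were Atoh8 (1.07) and Id3 (0.70), a relative of Id1. Sp7 and Runx2 of this list are also osteoblast markers. The 2 lower targets were Id1 (-1.43), the targeted gene, and Id2 (-0.54), another relative. As Id1 differs between the genotypes by design, Id2 was the only other lower target.

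Extracellular modulators were higher in 10 of 15 and lower in 1, against 17.2% and 10.6% of all genes tested. Dcn of this list is also a mesenchymal marker. Fbn1, which encodes the fibrillin that LTBPs bind, was at 114 and 121 CPM in Id1-/- against 29.5 and 37.7 CPM in Id1+/+ cultures (log2 1.80). Thbs1, thrombospondin 1, an activator of latent TGF-beta (log2 1.13), and Bgn, the proteoglycan biglycan (log2 0.99), followed. Of other ligands 3 of 7 were higher, namely Gdf11 (log2 1.42), Lefty1 (2.34) and Inha (2.86), the last on 10 and 11 counts in Id1-/- and 2 and 1 counts in Id1+/+ libraries. Without Inha and Lefty1, 1 of 5 was higher, near the 17.2% of all genes tested.

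For other receptors and intracellular regulators the background was again 17.2% higher and 10.6% lower. Of 6 receptors and coreceptors tested (5 without Amhr2), 1 was higher. It was Neo1, a receptor for RGM proteins (log2 1.14). Of 18 intracellular regulators, 2 were higher and 1 lower. These were the corepressor gene Tgif2 (log2 1.77, 31 and 25 counts in Id1-/- and 12 and 6 in Id1+/+ libraries), and the ubiquitin ligase genes Wwp1 (0.25) and Nedd4l (-0.33). The exons of Tgif2 share 61.6% of their bases with genes on the opposite strand, those of Timp3 21.3% and those of Fbn1 20.1%.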

How the data were processed

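The authors deposited counts per gene, whole numbers by their values, in 1 table for each model; the genome build was mm10, and DESeq2 1.32.0, featureCounts 2.0.1, HISAT2 2.2.1 and fastp 0.22.0 are named without roles, per the submitters' processing notes, and the strand setting is not given in the sources used here. The deposited AE9a columns that equal another column plus a constant were treated as a score with no fixed scale and not used. For MLL-AF9, edgeR 4.0.16 was used, with its filterByExpr filter, TMM factors and quasi-likelihood test (two-sided, Benjamini-Hochberg over all genes, threshold 0.05) in R 4.3.3. AE9a ratios used a prior count of 2, at least 10 counts and a mean of at least 1 CPM; intervals and floors cover counting error only. The fits were tested on simulated data, where the share of false calls was above the threshold and the interaction fit recovered large changes slightly under the bar first set, which was then lowered. Positions and exon lengths came from GENCODE M21 (GRCm38).

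Values in every library are printed for genes called in MLL-AF9 and for the most abundant gene per kb of each role; other pathway genes are named if among the 3 smallest adjusted p of their list in each direction, except 1 gene that is not reported here. The members, lists and rules were chosen with earlier results of these data known, and the MLL-AF9 table gives the only replicated comparison. Alternatives were other scaling, no filter, DESeq2 1.42.0, limma-voom (limma 3.58.1), a replicate block and leaving out each library.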

Additional observations from a re-analysis of the deposited data

Results flagged for a closer look

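In 9 pathway genes the difference between Id1-/- and Id1+/+ cells differed between AE9a and MLL-AF9 by an interaction test (edgeR, 6 libraries, with the lone AE9a libraries assumed to vary like the MLL-AF9 ones). On the log2 scale, AE9a minus MLL-AF9, the values were 2.55 for Grem1, 1.65 for Fstl3, 1.30 for Ltbp2, 1.21 for Fst, 0.86 for Inhba, 0.78 for Ltbp1, -0.45 for Tgfb1, -0.97 for Fstl1 and -1.46 for Ltbp3. For Grem1, the fitted log2 of Id1-/- over Id1+/+ was 2.32 in AE9a and -0.23 in MLL-AF9. For Ltbp3 it was -0.53 in AE9a and 0.93 in MLL-AF9. The mesenchymal markers had a median interaction of 1.25 (8 of 17 called), the leukaemic blast and myeloid progenitor markers one of 1.79 (6 of 8), the neutrophil markers one of 2.47 (3 of 8) and the megakaryocyte markers one of 1.88 (2 of 4), against -0.09 over all genes. Over all genes tested, 10.3% of interactions were called. Summed levels of the neutrophil and megakaryocyte markers were lower in Id1-/- than in Id1+/+ cells in both models. The part of these cell types in the interaction values was not tested.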

How the results depend on the processing

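Of the 28 pathway genes called in MLL-AF9, 19 were called with the same sign under every one of up to 10 alternatives, as were 7 of the 9 interactions under 7 (not Tgfb1 and Fst). The count of pathway genes higher in Id1-/- cells ran from 21 (without Id1+/+ replicate 1, or without Id1-/- replicate 2) to 28 (library totals). The 2 genes lower became 1 with library totals, DESeq2 and limma-voom, and 1 to 2 when a library was left out, Tgif1 being the one kept throughout. Other pathway genes lower, 4 in number, became 2 with library totals and 2 to 4 when a library was left out. The median log2 fold change of 0.46 was 0.57 with library totals, 0.53 with no filter and 0.43 to 0.53 when a library was left out. Library totals moved the median of all genes to 0.11 in MLL-AF9 and to 0.19 in AE9a, and gave opposite signs for uncalled genes, with 0.088 for Tgfb1, 0.11 for Tgfbr1 and 0.038 for Smad2, and in AE9a 0.16 for Smad2, 0.01 for Smad4 and 0.19 for Smurf1. In AE9a Smurf1 also turned to 0.0097 with at least 50 counts. Of 39 AE9a ratios, 21 stayed inside their counting interval under every alternative. Among those that did not, the log2 ratio ran up to -0.23 for Ltbp3 and -0.19 for Tgfb1. Leaving out a library gave uncalled values on both sides of 0, at -0.071 to 0.0014 for Tgfb1, -0.053 to 0.042 for Tgfbr1, -0.062 to 0.24 for Smad1 and -0.028 to 0.11 for Smad4. The cause was not tested. Same-numbered libraries did not deviate together (r = 0.069 across genes); a replicate block gave 26 pathway genes higher and 3 lower, and 5193 genes called over all genes, against 3936 without it. Over all genes DESeq2 called 2905, and leaving out a library gave 2225 to 3864. The number of libraries, 2 per genotype in MLL-AF9 and 1 in AE9a, and the few counts of Bmp4, Bmp6 and Chrd in MLL-AF9 limit the precision.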
